A study of Mus musculus with 10 samples.

Results

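The late response to loss of SOX2 was set against the early one by comparing nascent transcription at 6 and at 1 hours post depletion (hpd) in mouse embryonic stem cells. The comparison took the 4 libraries of these times, 2 at each, out of 10 in the series, and every transcribed unit (TU) with more than 10 fragments in at least 2 of the 10 libraries was tested, 28459 of 40779 in all. A TU is a stretch of one strand that the study called as transcribed, and it may hold a gene, lie opposite one or lie outside genes. The cells were of the E14 line (named IB10 for the SOX2 targeting) and carried SOX2 fused to an FKBP degron in all groups, controls included. They grew without serum in N2B27 with LIF, the MEK inhibitor PD0325901 and the GSK3 inhibitor CHIR99021. Cells at 0.5, 1, 2 and 6 hpd had received 500 nM dTAG-13, a small molecule that directs FKBP-tagged proteins to degradation, and control cells (NT) DMSO. All groups were labelled with 2 mM 4-thiouridine for 10 min, and each held 2 libraries. Untagged cells given dTAG-13 were not analysed here, so hours without SOX2 and hours in dTAG-13 cannot be told apart, and as one group of DMSO cells served all times, neither can hours since handling. The labels do not say whether replicates were separate cultures, and p-values measure the spread between libraries, which may be technical.

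SOX2 is a transcription factor of the high mobility group family that binds enhancers, often beside OCT4, and is needed to keep stem cells pluripotent. When such a factor is removed, genes that it drives directly can lose transcription within minutes, while genes further downstream change once their own regulators have been lost or gained. TT_chem-seq follows this course because it reads only RNA made during a short pulse, so that a change in synthesis is seen before the pool of stable mRNA has turned over. Enhancer and antisense RNAs, which are short-lived, are read beside the genes.

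Libraries at 1 hpd held 16437033 and 17704268 fragments, and those at 6 hpd 14275938 and 17834332. Transcripts of core pluripotency factors were abundant in all 4, with Pou5f1 at 127 and 133 CPM at 1 hpd and 109 and 97.3 CPM at 6 hpd (CPM, the usual unit of counts scaled to library size, here with TMM factors) and Nanog at 334 and 365 CPM at 1 hpd and 302 and 303 CPM at 6 hpd. The 13 tested genes of a trophoblast list summed to 362 and 366 CPM at 1 hpd and 321 and 320 CPM at 6 hpd, the 12 of a primitive endoderm list to 693 and 710 and to 698 and 748 CPM, and the 6 of a neural list to 126 and 122 and to 59.1 and 66.5 CPM. The 8 tested mesoderm genes summed to between 22.5 and 28.5 CPM and the 4 fibroblast genes to between 43.6 and 58.9 CPM. The 2 tested genes of a 2-cell-like list summed to between 1.05 and 2.28 CPM. In such bulk samples, fewer cells of a type and less RNA per cell cannot be told apart.

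Between 1 and 6 hpd more TUs fell than rose. Of 28459 TUs tested, 831 were lower at 6 hpd (2.92%) and 558 higher (1.96%). They were called by edgeR's quasi-likelihood test at a Benjamini-Hochberg adjusted p under 0.05, as for every adjusted p given here. A block for the replicate number gave 1708 lower and 1405 higher, and a fit to the compared libraries alone 1378 and 1155. Called decreases were larger, in TUs of lower depth (a median of 167.7 fragments per library, against 293 for called increases), and the part of depth in this was not tested. Among called TUs, the median size of the log2 fold change was 1.099 for decreases and 0.75 for increases, and 452 decreases but 171 increases were over 2-fold. Among the 14997 TUs with a gene symbol, 498 were lower (3.32%) and 447 higher (2.98%), so the excess of decreases lay mostly in TUs without a symbol. The mean at 2 hpd lay between the means of 1 and 6 hpd for 760 of the 831 decreases and 537 of the 558 increases. These TUs were chosen for their gap between 1 and 6 hpd, and the libraries at 2 hpd entered the same fit. The share over all tested TUs was not computed, so the counts are a description. The counts depended on each of the 4 libraries compared, with 143 to 341 increases and 303 to 446 decreases when 1 of them was left out.

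**Figure D1:**
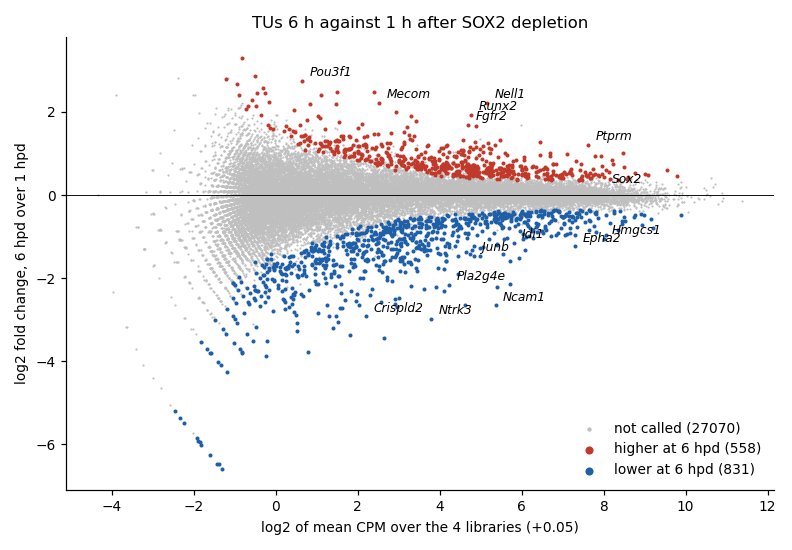
Log2 fold change between 6 and 1 hpd for each of the 28459 TUs tested (vertical axis) against its mean level over the 4 libraries (horizontal axis, log2 CPM). Blue points are the 831 TUs called lower, red points the 558 called higher; the 11 decreases below about -5 had no fragment at 6 hpd, so the fitted size of their change is no estimate.

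To separate early from late changes, called TUs were sorted by their own tests at 1 and at 6 hpd against NT. Against NT, the earlier time had 611 TUs up (2.15%) and 1026 down (3.61%), and the later one 1880 up (6.61%) and 2618 down (9.2%). By these calls most differences between the times were late ones. A TU not called at 1 hpd, with 2 libraries a group, may still have changed by then. A late fall (not called at 1 hpd, down at 6 hpd and lower at 6 than at 1 hpd) was seen in 426 TUs and a late rise in 391. Early changes grew in 110 TUs (growing fall) and 42 TUs (growing rise). Early changes were reduced or undone in 148 TUs that had risen at 1 hpd (transient rise) and in 25 that had fallen (brief fall). The remaining 147 decreases and 100 increases were called at neither time against NT. The contrasts share libraries (1 hpd with the first, NT between the others), so these counts describe the TUs and are no independent tests of one another.

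Of the 611 TUs up at 1 hpd, 24.2% were transient and 6.87% grew, and of the 1026 down at 1 hpd, 2.44% were brief falls and 10.7% grew. Of the 25 brief falls, 21 were not called against NT at 6 hpd, 3 were still called down and 1 was called up. The counts behind these shares depended on single libraries. With any 1 library of NT, 1 hpd or 6 hpd left out there were 39 to 109 transient rises, 4 to 26 growing rises, 1 to 14 brief falls and 37 to 100 growing falls, each lowest without replicate 2 of 1 hpd, and the shares were not recomputed. By 6 hpd, 129 of the 148 transient TUs were no longer called against NT, 16 were called down and 3 were still called up. Calls and differences against NT at 2 hpd use the NT libraries that helped choose these classes and are given as a description. At that time, 4.26% of all TUs were called up against NT and 5.57% down. All 110 growing falls and all 42 growing rises were called at 2 hpd, against 140 of the 426 late falls, 137 of the 391 late rises and 72 of the 148 transient rises. As log2 differences to NT over the last 3 times, the median late fall went from -0.04 through -0.55 to -1.29 and the median late rise from 0.12 through 0.40 to 0.86.

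**Figure D2:**
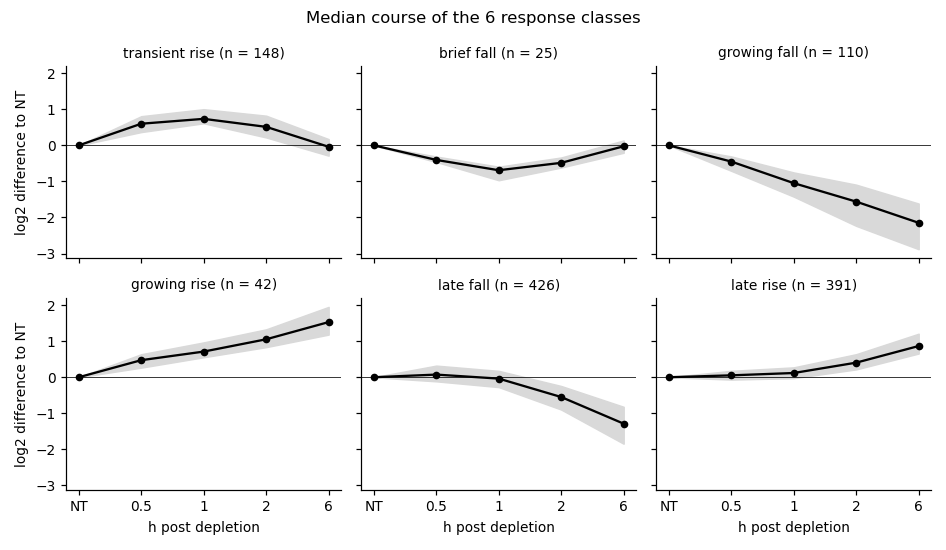
Median log2 difference to NT (line) and range from the lower to the upper quartile (grey) at each time for the 6 response classes, with the number of TUs in each. NT, 1 and 6 hpd chose the classes. The medians at 0.5 and 2 hpd (0.60 and 0.51 for transient rises, 0.07 and -0.55 for late falls) are differences to the same NT libraries and so are not independent of that choice.

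Among the gene lists examined, cholesterol synthesis had the largest share of members called. Of 23 tested enzymes of the mevalonate and cholesterol pathway, 17 were lower at 6 than at 1 hpd (73.9%, against 3.32% of all TUs with a symbol) and none was higher, with a median log2 fold change of -0.64 against 0.04 for all TUs with a symbol. At 1 hpd 19 of the 23 had been called up against NT, and at 6 hpd none was up and 1 was down. The list was written knowing that this pathway rises early and transiently in these libraries, and both contrasts use the libraries at 1 hpd. Neither the early rise nor the later fall is therefore an independent finding, and the counts describe the list. The median over the list, as the log2 difference to NT, was 0.36 and 0.26 in the libraries taken 0.5 hpd. It reached 0.75 and 0.72 in the pair from 1 hpd and 0.95 and 0.85 in the pair from 2 hpd, and stood at 0.20 and -0.01 in the last pair.

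The enzymes covered the pathway from its first steps to its end. Hmgcs1 (chr13:119690409-119723064, plus strand), which makes HMG-CoA, had 143 and 127 CPM in NT, 349.8 and 342 CPM at 1 hpd and 186 and 148 CPM at 6 hpd (log2 fold change -1.05 ± 0.13, adjusted p = 1.8e-04). Idi1 (chr13:8885636-8899169, plus strand), which isomerises isopentenyl diphosphate, had 38.8 and 35 CPM in NT, 79.1 and 75.6 CPM at 1 hpd and 36.3 and 33.5 CPM at 6 hpd (log2 fold change -1.15 ± 0.10, adjusted p = 1.7e-05). Libraries at 6 hpd lay below both libraries at 1 hpd for each of these, as for all 831 TUs called lower. The mean of Idi1 at 6 hpd differed from NT by -0.08 ± 0.11. Fdft1, or squalene synthase, had 204 and 210.2 CPM at 1 hpd and 125 and 117 CPM at 6 hpd (log2 fold change -0.78 ± 0.10, adjusted p = 3.0e-04). Lss, which closes the sterol rings, had 124 and 116 CPM at 1 hpd and 70.3 and 56.3 CPM at 6 hpd (log2 fold change -0.92 ± 0.13, adjusted p = 5.7e-04), and its TU began 8.38 kb before the annotated start. Cyp51, the lanosterol demethylase, had 178 and 175 CPM at 1 hpd and 96.1 and 83.8 CPM at 6 hpd (log2 fold change -0.97 ± 0.13, adjusted p = 5.0e-04). All 5 of these had been called up at 1 hpd, and none was called against NT at 6 hpd. Further enzymes lower at 6 hpd included Msmo1 (-0.95 ± 0.13), Mvd (-0.96 ± 0.15), Hsd17b7 (-0.73 ± 0.11), Sqle (-0.59 ± 0.10), Dhcr7 (-0.64 ± 0.13), Fdps (-0.87 ± 0.17), Nsdhl (-0.65 ± 0.14), Sc5d (-0.46 ± 0.11), Acat2 (-0.47 ± 0.12) and Ebp (-0.56 ± 0.14, log2). Ebp had not risen at 1 hpd (-0.09 ± 0.14, adjusted p = 0.77) and was the member below NT at 6 hpd (-0.66 ± 0.14). Hmgcs1, Idi1, Fdft1, Lss, Cyp51, Msmo1, Mvd and Hsd17b7 kept their call when any 1 of the 10 libraries was left out. Sqle, Dhcr7, Fdps, Nsdhl, Sc5d, Acat2 and Ebp each lost it in 1 or more such fits, with the direction kept. With 1 library left out, the count of 17 became 10 or 9 when it was replicate 1 or 2 of 1 hpd, and 14 or 9 when it was replicate 1 or 2 of 6 hpd.

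Because these genes moved together, their promoters were read (RefSeq starts, GRCm38, the build of the TUs, also called mm10). Sterol pathway promoters are known for sterol response elements, bound by SREBP, and for CCAAT boxes, bound by NF-Y. The 250 bases before the start were available for 17 of the 23 enzymes, and 15 of the 17 held CCAAT on either strand (88.2%), as did 11 of the 12 among those called lower. Of all 32851 promoters of that length 33.9% held it, and of 10896 for tested TUs 36.2%. The 9-letter element TCACNCCAC, searched on both strands, stood in 1 of the 17, that of Hmgcs1, and in 1.05% of all promoters. A start within 300 bp of the TU start was listed for 9 of the 17 enzymes called lower, of which 8 held CCAAT. The 4 of these with the smallest p are shown 5′ to 3′, to let the shared box be seen, with capitals for CCAAT or its reverse complement ATTGG and, in Hmgcs1, for the sterol response element. They lie at chr13:8885356-8885605, plus strand (Idi1), chr13:119690101-119690350, plus strand (Hmgcs1), chr8:64733579-64733828, minus strand (Msmo1) and chr5:4104698-4104947, minus strand (Cyp51).
Idi1: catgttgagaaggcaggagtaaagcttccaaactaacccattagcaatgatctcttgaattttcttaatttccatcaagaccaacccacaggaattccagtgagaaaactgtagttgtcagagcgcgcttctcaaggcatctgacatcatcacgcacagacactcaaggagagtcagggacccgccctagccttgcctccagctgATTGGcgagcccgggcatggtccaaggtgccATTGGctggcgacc
Hmgcs1: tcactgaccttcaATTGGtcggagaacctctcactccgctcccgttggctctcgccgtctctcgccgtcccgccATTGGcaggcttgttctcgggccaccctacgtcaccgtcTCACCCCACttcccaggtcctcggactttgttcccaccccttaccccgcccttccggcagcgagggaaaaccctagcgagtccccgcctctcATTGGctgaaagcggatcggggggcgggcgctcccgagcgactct
Msmo1: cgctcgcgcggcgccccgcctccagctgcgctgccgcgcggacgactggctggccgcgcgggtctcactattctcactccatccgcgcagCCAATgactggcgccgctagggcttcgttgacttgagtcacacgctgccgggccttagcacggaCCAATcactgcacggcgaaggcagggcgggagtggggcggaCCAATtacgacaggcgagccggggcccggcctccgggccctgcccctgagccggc
Cyp51: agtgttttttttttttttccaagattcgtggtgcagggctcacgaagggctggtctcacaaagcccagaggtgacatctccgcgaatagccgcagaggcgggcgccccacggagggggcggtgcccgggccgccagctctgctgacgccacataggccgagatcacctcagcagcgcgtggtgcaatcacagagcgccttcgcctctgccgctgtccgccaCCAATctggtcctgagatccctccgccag
The box nearest the start lay 14 to 10 bases before it in Idi1, 45 to 41 in Hmgcs1, 55 to 51 in Msmo1 and 29 to 25 in Cyp51. Hmgcs1 and Msmo1 each had 3 boxes, Idi1 had 2 and Cyp51 had 1. The sterol response element of Hmgcs1 lay between its boxes, 137 to 129 bases before the start. These letters are matches and not measured binding.

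Genes that sense and take up sterols followed in part. Of 15 tested, 3 were lower at 6 hpd and 1 higher, with a median of -0.14. Insig1, which holds SREBP back in the endoplasmic reticulum, had 166 and 157 CPM at 1 hpd and 113 and 88.1 CPM at 6 hpd (log2 fold change -0.69 ± 0.12, adjusted p = 0.0026). It was not called against NT at 6 hpd (0.23 ± 0.12). Rdh11 also fell (-0.52 ± 0.13). Mylip, a ubiquitin ligase, moved the other way, with 28.5 and 30.0 CPM at 1 hpd and 42.2 and 47.1 CPM at 6 hpd (log2 fold change 0.61 ± 0.11, adjusted p = 0.0053), after a fall at 1 hpd (-0.45 ± 0.12). Of 15 fatty acid genes 3 were lower at 6 hpd. None was higher in this fit, but 1 was with DESeq2, total counts, a replicate block or the compared libraries alone, and without replicate 2 of 0.5 hpd or either library of 2 hpd. None was lower without either library of 1 hpd or replicate 2 of 6 hpd. Fatty acid synthase (Fasn, -0.64 ± 0.13) had not risen at 1 hpd (0.03 ± 0.13), unlike Scd1 (-0.53 ± 0.12, from 0.54 ± 0.12) and Acly (-0.46 ± 0.12, from 0.48 ± 0.12). Rdh11, Mylip, Fasn, Scd1 and Acly were not called without 1 hpd replicate 1 (adjusted p 0.059 to 0.26). Rdh11, Mylip, Fasn, Scd1 and Acly were not called without 1 hpd replicate 2 (adjusted p 0.054 to 0.15). Acly was not called without 6 hpd replicate 1 (adjusted p = 0.11). Insig1, Rdh11, Mylip, Fasn, Scd1 and Acly were not called without 6 hpd replicate 2 (adjusted p 0.05 to 0.25). Acly was not called without NT replicate 1 (adjusted p = 0.053). Acly was not called without NT replicate 2 (adjusted p = 0.053).

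Immediate early genes and NF-kB targets, which answer to signals within minutes, held further transient rises. Of 14 tested immediate early genes 4 were lower at 6 hpd and 1 higher (median -0.21), and of 18 NF-kB targets 3 were lower and 1 higher (median -0.01). Junb, an AP-1 subunit, had 28 and 26.2 CPM in NT, 42.3 and 42 CPM at 1 hpd and 16.6 and 13.9 CPM at 6 hpd (log2 fold change -1.47 ± 0.12, adjusted p = 1.0e-05), and had thus fallen below NT. Its TU (chr8:84966022-84990904, minus strand) began 12.2 kb before the annotated start, so upstream transcription is counted with it. Icam1, an adhesion molecule, had 68.6 and 69.6 CPM in NT, 124 and 123 CPM at 1 hpd and 70.0 and 68.9 CPM at 6 hpd (log2 fold change -0.83 ± 0.10, adjusted p = 1.6e-04). Zc3h12a, an RNase that limits inflammatory mRNAs, had 20.3 and 16.1 CPM in NT, 45.2 and 44.1 CPM at 1 hpd and 20.5 and 16.7 CPM at 6 hpd (log2 fold change -1.27 ± 0.14, adjusted p = 8.4e-05). Neither of the last pair was called against NT at 6 hpd (0.01 ± 0.10 and 0.03 ± 0.15). Btg2 (-0.92 ± 0.20), Nr4a1 (-0.54 ± 0.14), Dusp1 (-0.52 ± 0.13) and Bcl3 (-0.67 ± 0.11) were lower at 6 hpd without a call at 1 hpd, and Klf6 (0.73 ± 0.13) and Nfkb1 (0.66 ± 0.12) were higher. The calls of Junb, Icam1, Zc3h12a and Bcl3 held when any 1 of the 10 libraries was left out. Nr4a1 and Dusp1 were not called without 1 hpd replicate 1 (adjusted p 0.14 to 0.2). Btg2, Nr4a1, Dusp1, Klf6 and Nfkb1 were not called without 1 hpd replicate 2 (adjusted p 0.079 to 0.2). Btg2, Nr4a1, Dusp1 and Klf6 were not called without 6 hpd replicate 1 (adjusted p 0.086 to 0.17). Btg2, Nr4a1, Dusp1 and Nfkb1 were not called without 6 hpd replicate 2 (adjusted p 0.06 to 0.17).

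The other leaders among transient rises were Lingo1, a membrane protein of neurons, with 15.1 and 11.7 CPM in NT, 26.7 and 23.1 CPM at 1 hpd and 5.62 and 5.07 CPM at 6 hpd (log2 fold change -2.22 ± 0.18, adjusted p = 7.8e-06), and Crispld2, a secreted protein, with 2.56 and 2.83 CPM in NT, 7.59 and 8.43 CPM at 1 hpd and 1.26 and 0.874 CPM at 6 hpd (log2 fold change -2.92 ± 0.24, adjusted p = 9.8e-06). Both were called up at 1 hpd and ended below the libraries of NT. Lama5, a laminin chain of basement membranes, had 146 and 149 CPM in NT, 246 and 268 CPM at 1 hpd and 145 and 142 CPM at 6 hpd (log2 fold change -0.84 ± 0.10, adjusted p = 2.1e-04), and was not called against NT at 6 hpd. Eomes, a regulator of trophoblast and mesendoderm, had 7.53 and 7.52 CPM at 1 hpd and 3.16 and 3.49 CPM at 6 hpd (log2 fold change -1.17 ± 0.19, adjusted p = 0.0021), and Amotl2, a partner of YAP, had 161 and 153 CPM at 1 hpd and 96.4 and 84.3 CPM at 6 hpd (log2 fold change -0.80 ± 0.10, adjusted p = 2.6e-04). The calls of Lingo1, Crispld2, Lama5, Eomes and Amotl2 held when any 1 of the 10 libraries was left out.

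**Figure D3:**
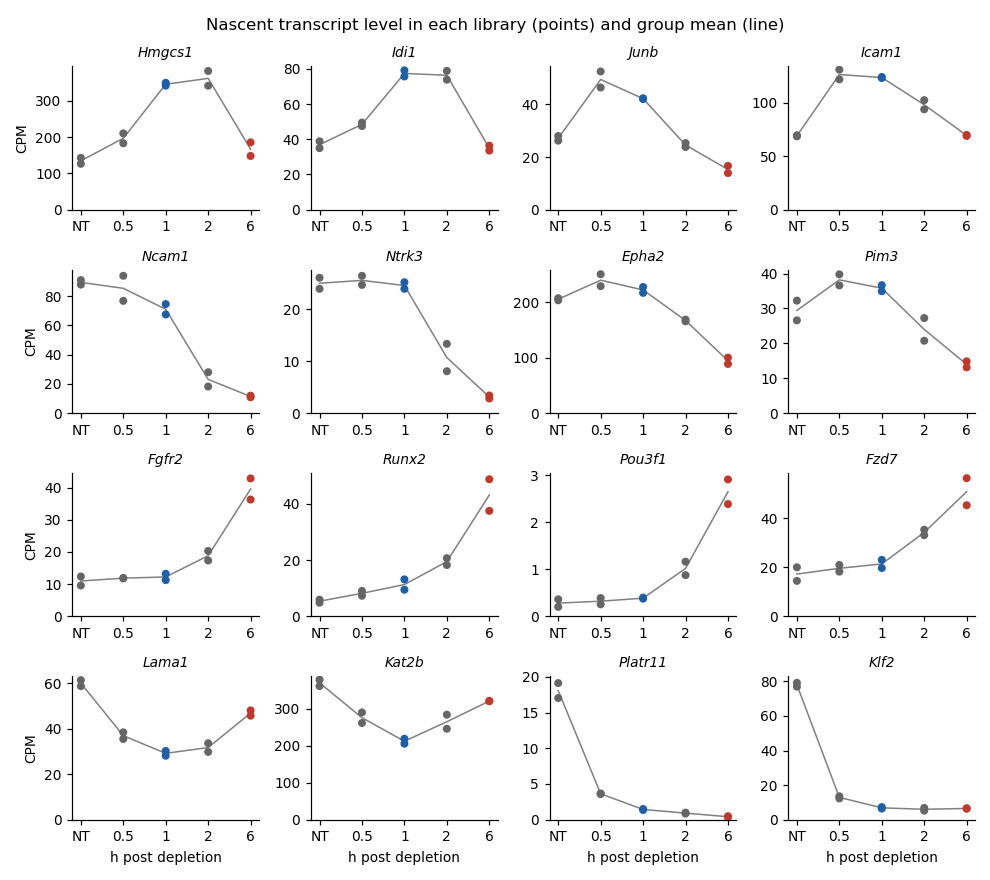
Level in CPM (vertical axes, from 0) of 16 genes in each of the 10 libraries by time (points; blue, 1 hpd; red, 6 hpd; grey, other times) with the mean of each pair (line). Hmgcs1, Idi1, Junb and Icam1 had returned or fallen by 6 hpd, and Ncam1, Ntrk3, Epha2 and Pim3 fell late. Fgfr2, Pou3f1 and Fzd7 rose late, while Runx2 had risen by 1 hpd and rose further. Lama1 and Kat2b recovered in part, and Platr11 and Klf2 had lost most of their level by 1 hpd.

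The late falls with the smallest p were in Ncam1, Pla2g4e and Ntrk3. Ncam1 (chr9:49501802-49798907, minus strand), the neural cell adhesion molecule, had 87.8 and 90.9 CPM in NT, 74.5 and 67.4 CPM at 1 hpd and 11.9 and 10.8 CPM at 6 hpd (log2 fold change -2.65 ± 0.18, adjusted p = 2.7e-06). Ntrk3, the receptor for neurotrophin 3, had 24 and 26.1 CPM in NT, 24 and 25.2 CPM at 1 hpd and 2.81 and 3.38 CPM at 6 hpd (log2 fold change -2.98 ± 0.21, adjusted p = 3.6e-06). Pla2g4e, a cytosolic phospholipase A2, had 38 and 41.3 CPM in NT, 30.9 and 30.1 CPM at 1 hpd and 5.62 and 7.92 CPM at 6 hpd (log2 fold change -2.16 ± 0.15, adjusted p = 2.7e-06). Ncam1 was thus 6.27-fold lower at 6 than at 1 hpd, Ntrk3 7.95-fold and Pla2g4e 4.5-fold, although none of the 3 was called at 1 hpd. Much of each fall had come by 2 hpd, when all 3 were called down against NT, with 27.9 and 18.1 CPM at 2 hpd for Ncam1, 13.3 and 8.06 CPM at 2 hpd for Ntrk3 and 14.4 and 13.4 CPM at 2 hpd for Pla2g4e. The TU of Ntrk3 ended 119 kb before the end of the gene, that of Pla2g4e began 30.1 kb inside it and that of Epha2 began 19.6 kb upstream. Epha2, a receptor for ephrins, had 217 and 228 CPM at 1 hpd and 100.2 and 88.8 CPM at 6 hpd (log2 fold change -1.24 ± 0.10, adjusted p = 1.0e-05). Fblim1, which links filamin to adhesions, had 96 and 97.5 CPM at 1 hpd and 41.2 and 36 CPM at 6 hpd (log2 fold change -1.33 ± 0.10, adjusted p = 6.0e-06), and Lrrn2 27.2 and 26.3 CPM at 1 hpd and 8.64 and 6.87 CPM at 6 hpd (log2 fold change -1.79 ± 0.13, adjusted p = 4.5e-06). Ndrg1, a gene known for its answer to hypoxia and differentiation, had 11.1 and 14.7 CPM at 1 hpd and 1.97 and 2.21 CPM at 6 hpd (log2 fold change -2.62 ± 0.21, adjusted p = 8.8e-06). In all of these both libraries at 6 hpd lay below both at 1 hpd, as in all 831 TUs called lower, so this adds no support. Tubb3, a neuronal tubulin, also fell (-1.54 ± 0.15), and of the sum of the neural list given above Ncam1 made up 74.5 and 67.4 CPM at 1 hpd and 11.9 and 10.8 CPM at 6 hpd. The calls of Ncam1, Ntrk3, Pla2g4e, Epha2, Fblim1, Lrrn2, Ndrg1 and Tubb3 held when any 1 of the 10 libraries was left out.

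In the LIF pathway, which sustains self-renewal through STAT3, 5 of 15 genes were lower at 6 hpd (33.3%) and 1 was higher, with a median of -0.18. Pim3, a kinase, had 34.9 and 36.7 CPM at 1 hpd and 14.8 and 13.1 CPM at 6 hpd (log2 fold change -1.36 ± 0.15, adjusted p = 7.4e-05), and Socs3, which feeds back on the receptor, had 25.3 and 32.2 CPM at 1 hpd and 15.1 and 14.2 CPM at 6 hpd (log2 fold change -0.98 ± 0.19, adjusted p = 0.0071). Pim1 (-0.56 ± 0.11), Socs2 (-0.44 ± 0.10) and Bcl3 were the others, and only Socs2 among the 5 had been down at 1 hpd (-0.68 ± 0.09). The receptor chains were called down at 1 hpd and not called between the times, with Lifr at 69.6 and 63.9 CPM at 1 hpd and 68.6 and 73.2 CPM at 6 hpd, and Il6st at 128 and 130 and at 131 and 147 CPM. Jak2 was higher (0.55 ± 0.15). The call of Pim3 held when any 1 of the 10 libraries was left out. Pim1, Socs2 and Jak2 were not called without 1 hpd replicate 1 (adjusted p 0.099 to 0.17). Socs3, Socs2 and Jak2 were not called without 1 hpd replicate 2 (adjusted p 0.11 to 0.28). Socs3, Socs2 and Jak2 were not called without 6 hpd replicate 1 (adjusted p 0.054 to 0.3). Socs3, Pim1, Socs2 and Jak2 were not called without 6 hpd replicate 2 (adjusted p 0.074 to 0.11). Jak2 was not called without NT replicate 1 (adjusted p = 0.05).

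Few pluripotency factors were called between 1 and 6 hpd. None of 6 core factors was called in either direction (1 was lower with a replicate block and 1 in the fit to the compared libraries alone), with values from -0.33 (Pou5f1, adjusted p = 0.093) to 0.23 (Sall1, adjusted p = 0.23). Sox2 itself, whose protein rather than gene is targeted, had 229 and 255 CPM at 1 hpd and 271 and 278 CPM at 6 hpd (log2 fold change 0.18 ± 0.11, adjusted p = 0.4). Of 15 naive factors 1 was lower, Tfap2c (-0.53 ± 0.13), and none higher (1 was higher with a replicate block and 1 in the fit to the compared libraries alone). Klf2, a naive factor that maintains the ground state, had 76.9 and 79.1 CPM in NT, 6.46 and 7.29 CPM at 1 hpd and 6.67 and 6.35 CPM at 6 hpd (log2 fold change -0.08 ± 0.16, adjusted p = 0.83), so that it was low by 1 hpd and no further change was called. Of the 15 naive factors 6 were down against NT at 1 hpd and 10 at 6 hpd, and the list's median log2 difference to NT went from -0.35 and -0.37 in the libraries of the earlier time to -0.67 and -0.60 in those of the later. Of 21 stem cell markers and targets 4 were lower and none higher (median -0.31), and 9 were lower with a replicate block. Tdh, the threonine dehydrogenase on which mouse stem cells rely, had 319 and 386 CPM at 1 hpd and 167 and 194 CPM at 6 hpd (log2 fold change -0.97 ± 0.12, adjusted p = 3.0e-04), with no call at 1 hpd. Jam2 (-0.97 ± 0.13), Tcl1 (-1.08 ± 0.16) and Spp1 (-0.47 ± 0.11) were the others. The calls of Tdh, Jam2 and Tcl1 held when any 1 of the 10 libraries was left out. Tfap2c was not called without 1 hpd replicate 1 (adjusted p = 0.21). Tfap2c and Spp1 were not called without 1 hpd replicate 2 (adjusted p 0.097 to 0.26). Spp1 was not called without 6 hpd replicate 1 (adjusted p = 0.14). Tfap2c and Spp1 were not called without 6 hpd replicate 2 (adjusted p 0.099 to 0.24).

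Falls that grew were led by Gm36038, a predicted gene, with 167 and 170.1 CPM in NT, 69.5 and 65.9 CPM at 1 hpd and 28.3 and 22.7 CPM at 6 hpd (log2 fold change -1.41 ± 0.11, adjusted p = 8.8e-06). Aoah, a hydrolase of bacterial lipids, had 139.7 and 145 CPM in NT, 22.1 and 21 CPM at 1 hpd and 8.29 and 9.43 CPM at 6 hpd (log2 fold change -1.27 ± 0.12, adjusted p = 2.9e-05). Irak3, an inhibitor of Toll-like receptor signalling, had 74.2 and 77 CPM in NT, 40.3 and 39.7 CPM at 1 hpd and 17.8 and 16.5 CPM at 6 hpd (log2 fold change -1.22 ± 0.12, adjusted p = 3.8e-05). For Aoah most of the fall was early (log2 difference to NT -2.73 ± 0.11 at 1 hpd), while for Irak3 it was divided between the 2 intervals (-0.92 ± 0.11 at 1 hpd and -1.22 ± 0.12 from then to 6 hpd). Platr11, a non-coding RNA of stem cells, had 17 and 19.1 CPM in NT and had lost most of its level by 1 hpd. In raw fragments, which are not on the CPM scale, it then went from 24 and 24 at 1 hpd to 7 and 6 at 6 hpd (log2 fold change -1.77 ± 0.35, adjusted p = 0.0074). The TUs of Aoah and Platr11 began 142 and 41.0 kb inside the annotated genes. Ccnd1, or cyclin D1, which drives entry into S phase, had 38.1 and 40.4 CPM in NT, 25.5 and 25.2 CPM at 1 hpd and 12.6 and 6.99 CPM at 6 hpd (log2 fold change -1.38 ± 0.19, adjusted p = 5.0e-04). The calls of Gm36038, Aoah, Irak3 and Ccnd1 held when any 1 of the 10 libraries was left out. Platr11 was not called without 1 hpd replicate 1 (adjusted p = 0.054). Platr11 was not called without 6 hpd replicate 2 (adjusted p = 0.094).

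A pair of genes, Top1 and Suv39h1, lie opposite TUs that had fallen at 1 hpd. The TU opposite the start of Top1 (chr2:160637513-160656258, minus strand) had 65.2 and 61.3 CPM in NT and had lost most of this level by 1 hpd. In raw fragments, which are not on the CPM scale, it had 45 and 38 at 1 hpd and 9 and 12 at 6 hpd (log2 fold change -1.88 ± 0.29, adjusted p = 0.0012). The TU opposite Suv39h1, a histone H3K9 methyltransferase (chrX:8048533-8079798, plus strand), had 16 and 17.3 CPM at 1 hpd and 8.5 and 10.9 CPM at 6 hpd (log2 fold change -0.77 ± 0.14, adjusted p = 0.004). Both thus fell further. The genes themselves, Top1, a topoisomerase (0.09 ± 0.15, adjusted p = 0.81), and Suv39h1 (0.09 ± 0.10, adjusted p = 0.7), were not called between the times. A further TU opposite the body of Top1 had 7 to 14 fragments in these libraries and was not called (adjusted p = 0.85). Of 19 topoisomerase and H3K9 methylation genes 1 was called, Top2b, which was higher at 6 hpd (0.47 ± 0.11, adjusted p = 0.022). The call of the TU opposite the start of Top1 held when any 1 of the 10 libraries was left out. Top2b was not called without 1 hpd replicate 1 (adjusted p = 0.13). The TU opposite Suv39h1 and Top2b were not called without 1 hpd replicate 2 (adjusted p 0.062 to 0.2). The TU opposite Suv39h1 and Top2b were not called without 6 hpd replicate 1 (adjusted p 0.072 to 0.078). Top2b was not called without 6 hpd replicate 2 (adjusted p = 0.15).

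The late rise with the smallest p was in Fgfr2. Fgfr2 (chr7:130159651-130266201, minus strand), a receptor for fibroblast growth factors, had 12.4 and 9.59 CPM in NT, 13.2 and 11.3 CPM at 1 hpd and 42.8 and 36.3 CPM at 6 hpd (log2 fold change 1.69 ± 0.15, adjusted p = 1.6e-05). Ptprm, a receptor phosphatase at cell contacts, had 115 and 122 CPM at 1 hpd and 245 and 305 CPM at 6 hpd (log2 fold change 1.22 ± 0.11, adjusted p = 2.4e-05), and Efnb2, an ephrin, 17.2 and 17.2 CPM at 1 hpd and 38.3 and 44.5 CPM at 6 hpd (log2 fold change 1.27 ± 0.12, adjusted p = 2.4e-05). Fgfr2 was 3.23-fold higher at 6 than at 1 hpd. Mecom, a zinc finger regulator, had 2.2 and 1.82 CPM at 1 hpd and 8.92 and 9.84 CPM at 6 hpd (log2 fold change 2.23 ± 0.23, adjusted p = 4.1e-05), and Itga8, an integrin chain, 2.32 and 3.7 CPM at 1 hpd and 11.7 and 12.7 CPM at 6 hpd (log2 fold change 2.01 ± 0.22, adjusted p = 7.2e-05). Apela, a peptide ligand of the apelin receptor, had 17.9 and 18.4 CPM at 1 hpd and 44.3 and 37.6 CPM at 6 hpd (log2 fold change 1.17 ± 0.12, adjusted p = 5.3e-05), and Pdgfc, a growth factor, 50.4 and 51.5 CPM at 1 hpd and 109.7 and 137 CPM at 6 hpd (log2 fold change 1.28 ± 0.13, adjusted p = 6.1e-05). None of these 7 was called at 1 hpd. The TU of Mecom began 497 kb and that of Pdgfc 40.9 kb inside the gene, and those of Itga8 and Ptprm ended 31.6 and 25.6 kb before its end. Fam49a (1.01 ± 0.10) and Ptgr1 (1.09 ± 0.12) completed the late rises among the 12 increases with the smallest p. The calls of Fgfr2, Ptprm, Efnb2, Mecom, Itga8, Apela, Pdgfc, Fam49a and Ptgr1 held when any 1 of the 10 libraries was left out.

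Among 13 tested genes of the formative and primed states, through which cells pass on leaving naive pluripotency, 3 were higher at 6 hpd and 1 lower. Pou3f1 (OCT6), a marker of this exit, rose from 6 and 7 fragments at 1 hpd to 34 and 50 at 6 hpd (log2 fold change 2.75 ± 0.38, adjusted p = 5.4e-04), and remained low, at 2.39 and 2.91 CPM, and DESeq2 gave it no adjusted p. Dnmt3a, a de novo DNA methyltransferase, had 32.6 and 28 CPM at 1 hpd and 47.8 and 45.2 CPM at 6 hpd (log2 fold change 0.62 ± 0.13, adjusted p = 0.0094), and Sox4, a developmental regulator, was 2.14-fold higher (1.25 and 1.31 CPM at 1 hpd and 2.53 and 2.97 CPM at 6 hpd, adjusted p = 0.033). The call of Sox4 was lost with DESeq2 and with total counts. Epha2 was the member that fell. With DESeq2 1 of the 13, Dnmt3a, was called higher. Otx2 and Zic2, other genes of this state, had been called down at 1 hpd and were not called between the times (0.06 and -0.01, adjusted p = 0.92 and 0.98). Of 12 primitive endoderm genes 3 were higher and none lower (median 0.20), namely Dab2, Lama1 and Lamb1, while Gata6 (0.27, adjusted p = 0.68), Gata4 and Hnf4a, which define that lineage, were at or under 2.32 CPM in all 4 libraries and not called. Of 13 trophoblast genes 2 were higher (Fgfr2 and Id2) and 5 lower (Eomes, Tead4, Cdh3, Lgals3 and Tspan8). Of 6 neural genes Zbtb16 was higher (0.92 ± 0.22), and Ncam1 and Tubb3 were lower. Of 7 Sox factors Sox4 was the one called, and of 13 DNA methylation enzymes Dnmt3a. None of the 8 mesoderm, 4 fibroblast and 2 2-cell-like genes was called in this fit. With a replicate block 1 mesoderm gene was lower and 1 fibroblast gene higher. The call of Pou3f1 held when any 1 of the 10 libraries was left out. Lgals3 was not called without 0.5 hpd replicate 1 (adjusted p = 0.05). Sox4, Lamb1, Id2, Tead4, Cdh3, Lgals3, Tspan8 and Zbtb16 were not called without 1 hpd replicate 1 (adjusted p 0.076 to 0.2). Dnmt3a, Sox4, Tead4, Lgals3, Tspan8 and Zbtb16 were not called without 1 hpd replicate 2 (adjusted p 0.069 to 0.37). Dnmt3a, Sox4, Id2, Tead4, Cdh3 and Tspan8 were not called without 6 hpd replicate 1 (adjusted p 0.065 to 0.14). Sox4, Lamb1, Id2, Tead4, Lgals3, Tspan8 and Zbtb16 were not called without 6 hpd replicate 2 (adjusted p 0.092 to 0.35). Lgals3 was not called without NT replicate 1 (adjusted p = 0.062). Lgals3 was not called without NT replicate 2 (adjusted p = 0.062).

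Rises that grew were led by Nell1 (chr7:49975699-50473133, plus strand), a secreted glycoprotein of bone, with 6.19 and 7.05 CPM in NT, 11.4 and 14 CPM at 1 hpd and 49.7 and 68.3 CPM at 6 hpd (log2 fold change 2.21 ± 0.17, adjusted p = 6.0e-06), a level 4.64-fold that at 1 hpd. Its TU ended 390.2 kb before the annotated end of the gene. Runx2, the regulator of bone formation, had 4.85 and 5.96 CPM in NT, 9.47 and 13.2 CPM at 1 hpd and 37.5 and 48.7 CPM at 6 hpd (log2 fold change 1.93 ± 0.18, adjusted p = 1.9e-05). Its TU (chr17:44602852-44735116, minus strand) began 79.7 kb inside the annotated gene and ended 107 kb before its end, so only part of the gene was counted. The TU of Dab2 began 86.9 kb inside the gene. Of 6 Runx factors and partners no other was called. Gm32085 had 16.6 and 18.2 CPM at 1 hpd and 34.8 and 36.2 CPM at 6 hpd (log2 fold change 1.03 ± 0.11, adjusted p = 1.0e-04), and Dab2, an endocytic adaptor, had 12.7 and 13.7 CPM in NT, 22.3 and 27 CPM at 1 hpd and 44.7 and 54.7 CPM at 6 hpd (log2 fold change 1.01 ± 0.14, adjusted p = 4.4e-04). The calls of Nell1, Runx2, Gm32085 and Dab2 held when any 1 of the 10 libraries was left out. Brief falls, the smallest class, were led by Cd47, a ligand that restrains phagocytes, with 34.9 and 30.7 CPM in NT, 22.5 and 23.7 CPM at 1 hpd and 38.8 and 45 CPM at 6 hpd (log2 fold change 0.86 ± 0.12, adjusted p = 4.7e-04). Lama1, a laminin chain, had 61.3 and 58.7 CPM in NT, 30.2 and 28.1 CPM at 1 hpd and 45.7 and 48 CPM at 6 hpd (log2 fold change 0.69 ± 0.11, adjusted p = 0.0016), and Kat2b, an acetyltransferase, 379 and 362 CPM in NT, 219 and 206 CPM at 1 hpd and 321 and 322 CPM at 6 hpd (log2 fold change 0.60 ± 0.11, adjusted p = 0.0041). Against NT, Cd47 stood at 0.35 ± 0.11 at 6 hpd, Lama1 at -0.36 ± 0.11 and Kat2b at -0.21 ± 0.11. The calls of Cd47 and Lama1 held when any 1 of the 10 libraries was left out. Kat2b was not called without 1 hpd replicate 2 (adjusted p = 0.1).

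Among signalling pathways, the Wnt, FGF-ERK and BMP lists had calls in both directions. Over all TUs with a symbol, 2.98% were higher and 3.32% lower. Of 26 Wnt genes 3 were higher (11.5%) and 2 lower (7.69%), with a median of 0.07. Fzd7, a Wnt receptor, had 23 and 19.7 CPM at 1 hpd and 56.3 and 45.2 CPM at 6 hpd (log2 fold change 1.25 ± 0.15, adjusted p = 2.2e-04), while Fzd5, another, had 46.7 and 50.8 CPM at 1 hpd and 35.9 and 31.3 CPM at 6 hpd (log2 fold change -0.54 ± 0.12, adjusted p = 0.016). The Wnt inhibitor Dkk1 (2.18 ± 0.37) and Tnfrsf19 (0.48 ± 0.12) were also higher, and Lgr5, a receptor for R-spondins, was lower (-1.77 ± 0.45). Of 16 genes of the FGF-ERK pathway 2 were higher, Fgfr2 and Phlda1 (0.99 ± 0.26), and 3 lower, the feedback inhibitors Dusp5 (-1.06 ± 0.23) and Spry4 (-1.35 ± 0.30) and the target Myc (-1.42 ± 0.38). Of 15 Nodal pathway genes Lefty2, an inhibitor of Nodal, was lower (-1.47 ± 0.22). In this list 2 were higher and 6 lower with a replicate block, 1 and 5 in the fit to the compared libraries alone, and 4 were lower without either library of 2 hpd. Of 16 BMP genes Acvr1 (0.52 ± 0.11) and Id2 (0.98 ± 0.22) were higher and Id1 lower (-1.37 ± 0.24, log2 fold change ± SE as for each of these). Of 27 matrix and adhesion genes 5 were higher (18.5%) and 6 lower (22.2%), with laminins on both sides. Nell1, Ptprm, Lama1, Lamb1 (0.65 ± 0.14) and Itgav (0.53 ± 0.11) were higher, and Lama5, Cdh3 (-0.90 ± 0.18), Nid1 (-0.54 ± 0.11), Itga3 (-0.45 ± 0.10), Ptprf (-0.49 ± 0.11) and Itga9 (-2.43 ± 0.56) lower. Of the 6 lower, 1 or 2 were left when replicate 1 or 2 of 1 hpd was dropped, and 1 or 3 when replicate 1 or 2 of 6 hpd was. The calls of Fzd7 and Lefty2 held when any 1 of the 10 libraries was left out. Myc was not called without 0.5 hpd replicate 1 (adjusted p = 0.053). Myc was not called without 0.5 hpd replicate 2 (adjusted p = 0.054). Fzd5, Tnfrsf19, Lgr5, Phlda1, Dusp5, Myc, Acvr1, Nid1, Itga3, Ptprf, Itga9 and Itgav were not called without 1 hpd replicate 1 (adjusted p 0.06 to 0.24). Fzd5, Dkk1, Tnfrsf19, Lgr5, Phlda1, Spry4, Myc, Acvr1, Nid1, Itga3, Ptprf, Itga9 and Itgav were not called without 1 hpd replicate 2 (adjusted p 0.055 to 0.18). Lgr5, Phlda1, Spry4, Myc, Nid1, Itga3, Ptprf and Itga9 were not called without 6 hpd replicate 1 (adjusted p 0.07 to 0.23). Fzd5, Tnfrsf19, Lgr5, Phlda1, Dusp5, Myc, Acvr1, Id1, Itga3, Ptprf, Itga9 and Itgav were not called without 6 hpd replicate 2 (adjusted p 0.058 to 0.34). Myc was not called without NT replicate 1 (adjusted p = 0.05).

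In housekeeping groups no gene was called between the times. None of 92 cytosolic ribosomal protein genes (median -0.13), 73 mitochondrial ribosomal protein genes (median 0.01) and 84 respiratory chain genes (median 0.04) passed the test, and none of 19 heat shock genes (median -0.07). Only 9 of the 92 cytosolic ribosomal protein genes had a log2 fold change above 0, 20 were down against NT at 6 hpd and none at 1 hpd, and 5 were lower in the fit to the compared libraries alone. Of 24 amino acid stress genes 1 was lower, Slc7a5, an amino acid transporter (-0.58 ± 0.10), while 5 were lower with a replicate block and 6 in the fit to the compared libraries alone. Of 24 cell cycle genes Cdkn2c was higher (1.19 ± 0.31) and Ccnd1 and E2f2 (-0.40 ± 0.11) lower, and of 25 Polycomb genes Phf19 (1.06 ± 0.24) and Yaf2 (0.54 ± 0.14) were higher and none lower. Of 19 Hippo-YAP genes 3 were lower (Amotl2, Tead4 and Ajuba, -0.67 ± 0.14), of 22 p53 pathway genes 3 (Btg2, Zmat3, -0.36 ± 0.10, and Aen, -0.43 ± 0.10) and of 13 genes of the Myc family and its partners 2 (Myc and Mnt, -0.46 ± 0.11), with none higher. With the block the p53 count was 7, and in the fit to the compared libraries alone 5. In each of these fits 2 Myc family genes were higher. Neither Myc nor Mnt was called with total counts, nor Myc with DESeq2. Of 24 nuclear receptors Nr2f2 was higher (0.92 ± 0.12) and Rarg (-0.67 ± 0.11) and Nr4a1 lower. Among large families, 10 of 221 solute carriers were higher and 14 lower, 8 of 311 Zfp zinc finger genes higher and 3 lower, and 28 of 1791 predicted Gm genes higher and 58 lower. As shares these are 4.52% and 6.33%, 2.57% and 0.965%, and 1.56% and 3.24%, beside 2.98% and 3.32% of all TUs with a symbol. With a replicate block the counts were 23 and 26, 25 and 4, and 75 and 125, and in the fit to the compared libraries alone 17 and 22, 22 and 4, and 45 and 92. Leaving out 1 of the 4 libraries compared brought solute carriers to between 4 and 6 higher and between 5 and 7 lower, and Zfp genes to 1 or 2 higher and between 1 and 3 lower. Gm genes were then between 7 and 25 higher and between 19 and 29 lower, each lowest without 1 hpd replicate 2. The calls of Slc7a5 and Nr2f2 held when any 1 of the 10 libraries was left out. E2f2 was not called without 0.5 hpd replicate 1 (adjusted p = 0.052). Cdkn2c, E2f2, Yaf2, Ajuba, Zmat3, Aen and Mnt were not called without 1 hpd replicate 1 (adjusted p 0.088 to 0.28). Cdkn2c, E2f2, Phf19, Yaf2, Zmat3, Aen and Mnt were not called without 1 hpd replicate 2 (adjusted p 0.16 to 0.34). Cdkn2c, E2f2, Phf19, Yaf2, Zmat3, Aen and Mnt were not called without 6 hpd replicate 1 (adjusted p 0.11 to 0.21). Cdkn2c, E2f2, Yaf2, Ajuba, Zmat3, Aen, Mnt and Rarg were not called without 6 hpd replicate 2 (adjusted p 0.053 to 0.21). Zmat3 was not called without NT replicate 1 (adjusted p = 0.05). Zmat3 was not called without NT replicate 2 (adjusted p = 0.05).

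**Figure D4:**
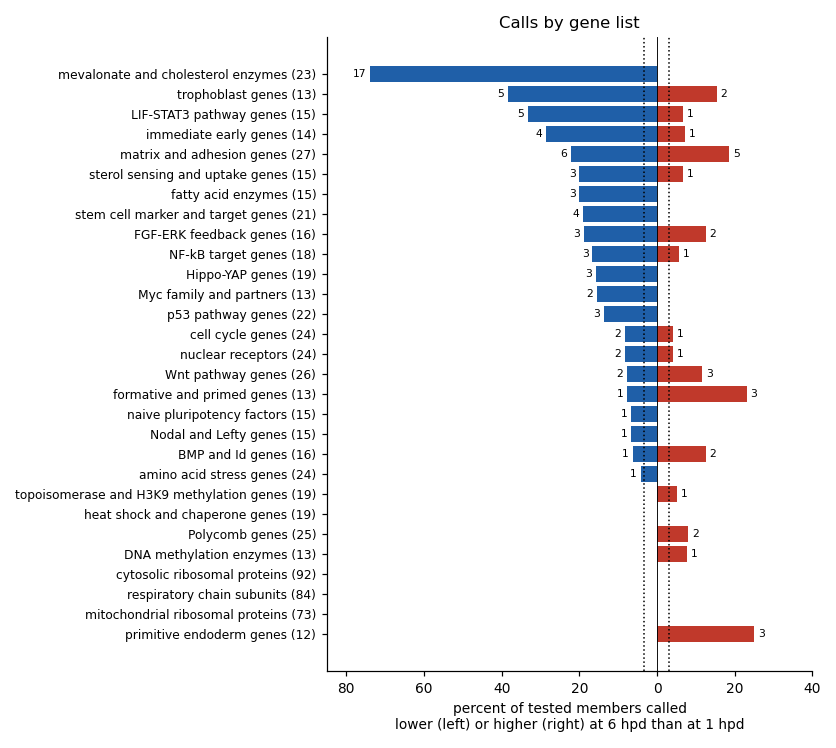
Percent of tested members of each gene list called lower (blue, left) or higher (red, right) at 6 than at 1 hpd, with the number called beside each bar and the number tested in brackets. Dotted lines mark the shares over all TUs with a gene symbol (3.32% lower and 2.98% higher), and the mevalonate and cholesterol enzymes stood farthest from them, at 17 of 23 lower.

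By annotation class, TUs outside genes were called lower more often than higher. Single-gene TUs were split nearly evenly, with 446 of 14979 higher (2.98%) and 498 lower (3.32%). Extragenic TUs, which include enhancer RNAs, were higher in 73 of 7793 cases (0.94%) and lower in 224 (2.87%). Antisense TUs within gene bodies were higher in 19 of 2831 and lower in 58, those at transcript ends higher in 9 of 594 and lower in 23, and those at start sites higher in 10 of 2244 and lower in 28. Small gene clusters went the other way, with 1 of 18 TUs higher and 0 lower. Classes differ in depth, with a median of 353.3 fragments per library for single genes and 17.2 for extragenic TUs. With the mean held to 50 fragments or more, 2.85% of 1615 extragenic TUs were higher and 6.69% lower, against 3.31% and 3.76% of 11923 single genes. The response classes differed likewise. TUs with a symbol made up 52.7% of all tested, 82.1% of late rises and 85.1% of transient rises, but 50.9% of late falls and 56.4% of growing falls, and of the 426 late falls 149 were extragenic and 60 antisense. No test was made of differences between classes, whose TUs share libraries and neighbourhoods.

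**Figure D5:**
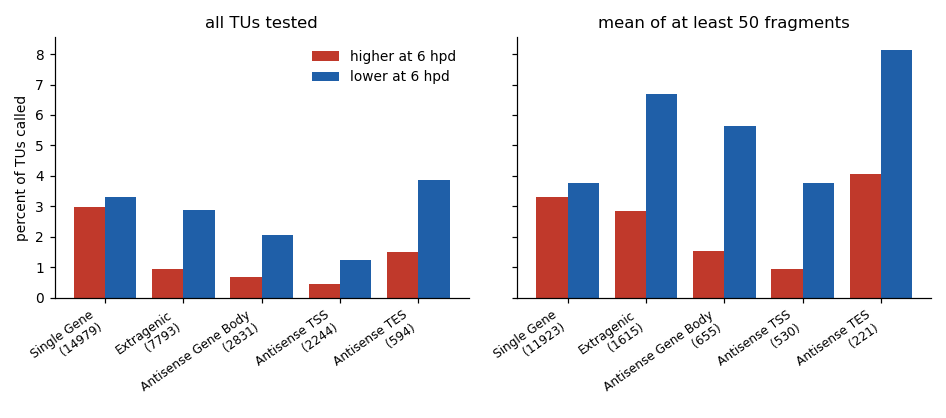
Percent of TUs called higher (red) or lower (blue) at 6 than at 1 hpd by annotation class, for all TUs tested (left) and for those whose mean reached 50 fragments per library (right), with the number tested in brackets. Blue bars exceed red ones in each of the 5 classes plotted, on both sides, least so for single genes. Small gene clusters (18 TUs, of which 1 was higher and 0 lower) are not plotted.

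Some extragenic calls lay beside genes called in the same direction. A gene TU lay within 10 kb of 72 of the 224 extragenic TUs called lower, and the nearest one was lower in 19 cases and higher in none. For 24 of the 73 called higher it was higher in 9 cases and lower in none. Over all 3264 extragenic TUs with a gene so near, it was higher in 3.55% and lower in 4.11%. Whether such TUs continue transcription of the gene beside them was not tested. An extragenic TU beside Pdgfc (chr3:81034327-81070780, plus strand), 6571 bp from it on the same strand, had 12.2 and 14.9 CPM at 1 hpd and 32.8 and 34.7 CPM at 6 hpd (log2 fold change 1.32 ± 0.13, adjusted p = 2.7e-05). Others with the smallest p lay farther from genes. One (chr10:68246451-68283135, minus strand) had 55.2 and 63.7 CPM at 1 hpd and 111 and 119 CPM at 6 hpd (log2 fold change 0.95 ± 0.10, adjusted p = 7.2e-05) and another (chr10:34483482-34616443, plus strand) 14.3 and 14 CPM at 1 hpd and 27.2 and 31 CPM at 6 hpd (log2 fold change 1.04 ± 0.13, adjusted p = 2.2e-04). An extragenic TU (chr13:33868977-33891310, minus strand) had 10.9 and 11.9 CPM at 1 hpd and 2.81 and 2.62 CPM at 6 hpd (log2 fold change -2.07 ± 0.17, adjusted p = 1.0e-05), and an antisense TU opposite Gm20611 (chr10:60986729-61063306, minus strand) 57 and 60.7 CPM at 1 hpd and 25.7 and 25.4 CPM at 6 hpd (log2 fold change -1.20 ± 0.10, adjusted p = 1.0e-05). The calls of these 5 TUs held when any 1 of the 10 libraries was left out.

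The TU with the smallest p of all was antisense to Gm35545 on chromosome 16 (chr16:19211784-19276022, minus strand). It had 20.9 and 22.5 CPM in NT, 39.1 and 46.1 CPM at 1 hpd and 6.32 and 7.34 CPM at 6 hpd (adjusted p = 4.9e-07), so that it rose early (0.97 ± 0.13) and then fell to -1.66 ± 0.15 against NT. Gm35545 (chr16:19177157-19265465, plus strand), a predicted gene on the other strand, had 10.7 and 11.3 CPM in NT, 12.4 and 10.4 CPM at 1 hpd and 0.913 and 1.16 CPM at 6 hpd (log2 fold change -3.43 ± 0.25, adjusted p = 3.6e-06) and had not changed detectably at 1 hpd (0.05 ± 0.18, adjusted p = 0.92). All 7 tested TUs within 100 kb of the antisense TU, itself included, were called lower at 6 than at 1 hpd, in a window looked at after these values were seen. A pair of extragenic TUs there went from 8 and 11 and from 13 and 9 fragments at 1 hpd to none in either library at 6 hpd. In all, 11 called TUs had no fragment at 6 hpd, of which 10 were extragenic and the other was Ly6g6e with 4 and 12 fragments at 1 hpd, and a count of 0 allows up to 3 fragments per library. The calls of the antisense TU and Gm35545 held when any 1 of the 10 libraries was left out.

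Long TUs were called more often than short ones in both directions. Among the tested TUs of 31.7 to 1175 kb, the longest of 4 equal groups, 4.62% were higher and 4.68% lower, and in the shortest group (up to 4.66 kb) 0.27% and 0.91%. Median depth rose alongside, from 13.1 to 1007 fragments per library, and its part in the difference was not tested. Among TUs with a symbol the shares in the longest group were 4.57% higher and 4.39% lower. By class, the median length was 45.0 kb for late rises, 58.7 kb for growing rises, 21.0 kb for late falls and 33.9 kb for transient rises, against 12.6 kb for all tested.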

How the data were processed

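Nascent RNA was measured by TT_chem-seq in 10 libraries, of which the 4 at 1 and 6 hpd were compared and all 10 entered the fit. Per the labels and the study's methods, reads were mapped to mm10 by the authors (BWA 0.7.17-r1188), filtered with SAMtools 1.10, cleared of duplicates with Picard 2.12.0 and split by strand. TUs were called with a hidden Markov model on pooled libraries and named from RefSeq, and raw fragment counts per TU were deposited. Since TUs were called on pooled libraries, one TU may hold more than one gene or part of a gene, and its count then covers that span.

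From these counts, TMM-scaled CPM and log2 fold changes ± SE were computed with edgeR 4.0.16 (quasi-likelihood test, R 4.3.3), with 5 groups of 2 libraries, no covariate and Benjamini-Hochberg adjustment over all 28459 TUs. The 12320 TUs left out held 0.316% of fragments. The script was tested on simulated data. Dispersion was shared over all groups, with a common biological coefficient of variation of 10.0%. Libraries of one group differed by more than sampling noise (chi-square per degree of freedom 2.69 to 9.03), so each was counted as 1 sample. Limits on counts of 0 cover counting error only, while the SE of a log2 fold change also covers the spread between libraries. Start coordinates are printed as the file gives them.

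Members and gene lists were chosen with earlier results of these data known. Genes were named by rule: the 12 symbol-bearing TUs of smallest p each way, each list's leading called member each way, all called members of the core, naive, mevalonate, sterol, immediate early, NF-kB and Runx lists, the 3 of smallest p in each response class, the 3 without a symbol in each direction, and, from the study's own text, Ctgf, Hmgcs1, Klf2, Platr11 and Sox2 with Top1, Suv39h1 and the TUs opposite them. Further list members, the TUs without fragments and the chromosome 16 window were named after their values were seen. Alternatives were DESeq2 1.42.0, RLE factors, total counts, no filter, a mean of at least 50 fragments, a block for the replicate number, a fit to the compared libraries alone, and each library left out. Some members of the lists are not reported here by name.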

Additional observations from a re-analysis of the deposited data

How the results depend on the processing

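Among 138 named TUs that were called, the direction was the same in every fit that left out 1 library, and 66 kept their call in all 10 such fits. Of the named TUs, 14 lost their call with DESeq2 (Dusp1, Jak2, Cdkn2c, Sox4, Tspan8, Phlda1, Myc, Lgr5, Zmat3, Yaf2, E2f2, Zfp709, Zfp202 and Zfp318), 9 with total counts (Ebp, Dusp1, Nr4a1, Mnt, Sox4, Lgals3, Phlda1, Myc and Zfp709), 6 with RLE factors (Jak2, Acly, Zmat3, E2f2, Zfp709 and Zfp318), 5 with no filter (Myc, Zmat3, E2f2, Zfp709 and Zfp318) and 2 when the mean had to reach 50 fragments (Zbtb16 and Lgals3). DESeq2 gave an adjusted p for 137 of the 138 called TUs and none for Pou3f1, which is not among the 14. DESeq2 called 458 TUs higher and 710 lower, of which 430 and 675 were shared with edgeR, and counted 13 brief falls in place of 25. Fitting only the libraries compared gave 1155 higher and 1378 lower, with 275 transient rises, 61 brief falls, 183 growing falls, 134 growing rises and 728 late rises. A replicate block gave 1405 TUs higher and 1708 lower, with 322 transient rises, 107 brief falls, 272 growing falls, 145 growing rises, 844 late falls and 841 late rises, and all 558 and 831 calls were among them. More members of many lists were called by these fits. With the block, FGF-ERK genes had 5 higher, primitive endoderm genes 5, Wnt genes 5, DNA methylation enzymes 3 and nuclear receptors 3, and 4 nuclear receptors were lower. Some lists with no call in a direction gained one: with the block and with the compared libraries alone, 2 Myc family genes, 1 naive factor, 1 fibroblast gene and 1 respiratory chain gene were higher, and 1 core factor and 1 Sox factor lower. The cytosolic ribosomal proteins had 1 and 5 lower in these fits, 1 mesoderm gene was lower with the block, 1 heat shock gene was lower with the compared libraries alone or a mean of 50 fragments, and 1 stem cell marker was higher without replicate 2 of 6 hpd. The labels do not say that replicate numbers mark shared cultures or days, and differences between replicates 1 and 2 correlated at 0.30 between 1 and 6 hpd, with 0.05 to 0.66 over all pairs of groups.

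Leaving out 1 library gave 143 to 673 TUs higher and 303 to 953 lower. For 1 hpd, the higher and lower counts were 152 and 446 without replicate 1, and 143 and 303 without replicate 2. For 6 hpd they were 240 and 355 without replicate 1, and 341 and 368 without replicate 2. Over all such fits transient rises numbered 39 to 190, brief falls 1 to 31, growing falls 37 to 131, growing rises 4 to 65, late falls 168 to 484 and late rises 128 to 458. Without NT replicate 2 there were 73 transient rises, 13 brief falls, 54 growing falls and 15 growing rises, and without NT replicate 1 there were 14 brief falls and 22 growing rises. Growing rises numbered 64 and 65 without 2 hpd replicates 1 and 2. The sign turned only for genes that were not called: over the fits without 1 library, Ctgf ranged from -0.24 to 0.10, with 0.036 without 1 hpd replicate 1. Klf2 ranged from -0.164 to 0.009 and Top1 from -0.001 to 0.18, with the turned value of both without 1 hpd replicate 2. A fit without a library leaves 1 in that group, which is assumed to vary like the others. With 2 libraries a group, changes in TUs of few fragments may have been missed at this depth, which was not tested.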
